A study of Mus musculus with 3 samples.

Results

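Accessible chromatin was examined at 10 imprinted genes, Peg3, Snrpn, H19, Igf2, Dlk1, Meg3, Mest, Peg10, Plagl1 and Gnas, in 8 windows placed around them on the mouse build mm9. The windows held 29 accessible regions of the 84529 found over the genome. A region is a stretch in which peaks of the 3 samples overlapped by at least 1 bp, and a peak belonged to a window when it overlapped it by at least 1 bp. The windows are defined by position, and the genes were chosen with earlier results of these data known. H19 and Igf2 share a window, and so do Dlk1 and Meg3.

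The samples were ATAC-seq libraries from the dentate gyrus of the hippocampus, dissected from C57BL/6 mice aged 8 weeks. ATAC-seq reads the places where the transposase Tn5 can enter chromatin. All 3 libraries belong to the group labelled E24 and are numbered replicates 1, 2 and 3. Each came from its own animal, per the labels. The labels do not spell out E24 and name no genotype, stimulus or sex. The series as a whole asks how neuronal activation alters accessibility, but a group to set E24 against was not analysed here. The dissected tissue mixes granule neurons with other cells, and cell type markers were not checked here because no mm9 gene annotation was used.

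An imprinted gene is expressed mainly from the chromosome inherited from a single parent. The choice is carried by DNA methylation laid down on CpG pairs in egg or sperm at control regions, many of which overlap a promoter. Several of these genes are active in brain. A peak list from an inbred strain does not separate the parental copies, so the values below are for both copies together.

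Promoter sequences are shown for the genes of the windows with the highest-scoring regions, Peg3 and Plagl1, and for Igf2, whose window had no peak in any list. They run 5′ to 3′ from 250 bases before to 50 bases after the annotated start, with every CpG pair, the target of imprinting methylation, in capitals. Where a gene has several annotated starts, the one with the most CpG pairs is printed. These sequences are on another build than the peaks, so no peak was placed on them.
Peg3 (RefSeq, GRCm38.p6, chr7:6730370-6730669, minus strand): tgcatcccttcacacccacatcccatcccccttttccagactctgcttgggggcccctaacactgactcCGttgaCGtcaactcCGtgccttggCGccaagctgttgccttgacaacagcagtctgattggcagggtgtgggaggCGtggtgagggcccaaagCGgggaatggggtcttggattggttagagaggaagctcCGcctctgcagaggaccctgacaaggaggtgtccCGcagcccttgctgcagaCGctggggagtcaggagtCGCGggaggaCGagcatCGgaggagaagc
Plagl1 (RefSeq, GRCm38.p6, chr10:13090582-13090881, plus strand): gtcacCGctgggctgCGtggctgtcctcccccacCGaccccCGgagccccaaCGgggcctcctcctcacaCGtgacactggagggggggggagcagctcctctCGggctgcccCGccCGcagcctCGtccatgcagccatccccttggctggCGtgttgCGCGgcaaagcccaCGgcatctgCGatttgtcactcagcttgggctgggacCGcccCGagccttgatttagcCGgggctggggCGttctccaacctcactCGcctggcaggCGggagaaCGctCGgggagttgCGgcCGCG
Igf2 (RefSeq, GRCm38.p6, chr7:142658755-142659054, minus strand): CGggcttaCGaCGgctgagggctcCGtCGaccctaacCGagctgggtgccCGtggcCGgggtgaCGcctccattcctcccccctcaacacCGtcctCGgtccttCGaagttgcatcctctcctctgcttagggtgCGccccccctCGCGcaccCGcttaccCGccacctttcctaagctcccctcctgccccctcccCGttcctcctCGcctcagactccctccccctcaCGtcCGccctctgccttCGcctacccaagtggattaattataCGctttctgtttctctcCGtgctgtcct

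The table of RefSeq promoters held 8 of the 10 genes, with 20 starts. The Peg3 promoter has 13 CpG pairs in 300 bases, the Plagl1 promoter 26 and the Igf2 promoter shown 24, against a median of 7 over 32851 mouse promoters. As many CpG pairs or more were found in 37.9% of all promoters for Peg3, 16.9% for Plagl1 and 20.0% for Igf2. The Gnas starts ranged from 16 to 40 CpG pairs, the Snrpn starts from 2 to 7 and the other Igf2 starts from 2 to 14. The Mest starts had 8 to 17, the Meg3 starts 1 and 13, and the Dlk1 start 9. The Igf2 start shown is the richest of 4, whereas Peg3 and Plagl1 each have a single start in the table.

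The files give a score for each peak, written by the authors' peak caller and not comparable in size between lists. Each score was therefore turned into a percentile, the share of peaks in the same list with the same or a lower score, so that the highest peak of a list stands at 100. Replicate 1 had 24 peaks in the 8 windows, replicate 2 had 26 and replicate 3 had 21, out of lists of 62912, 68699 and 48769 peaks. The lists give no read depth, and a place without a peak may therefore be open below what the calling could reach.

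**Figure D1:**
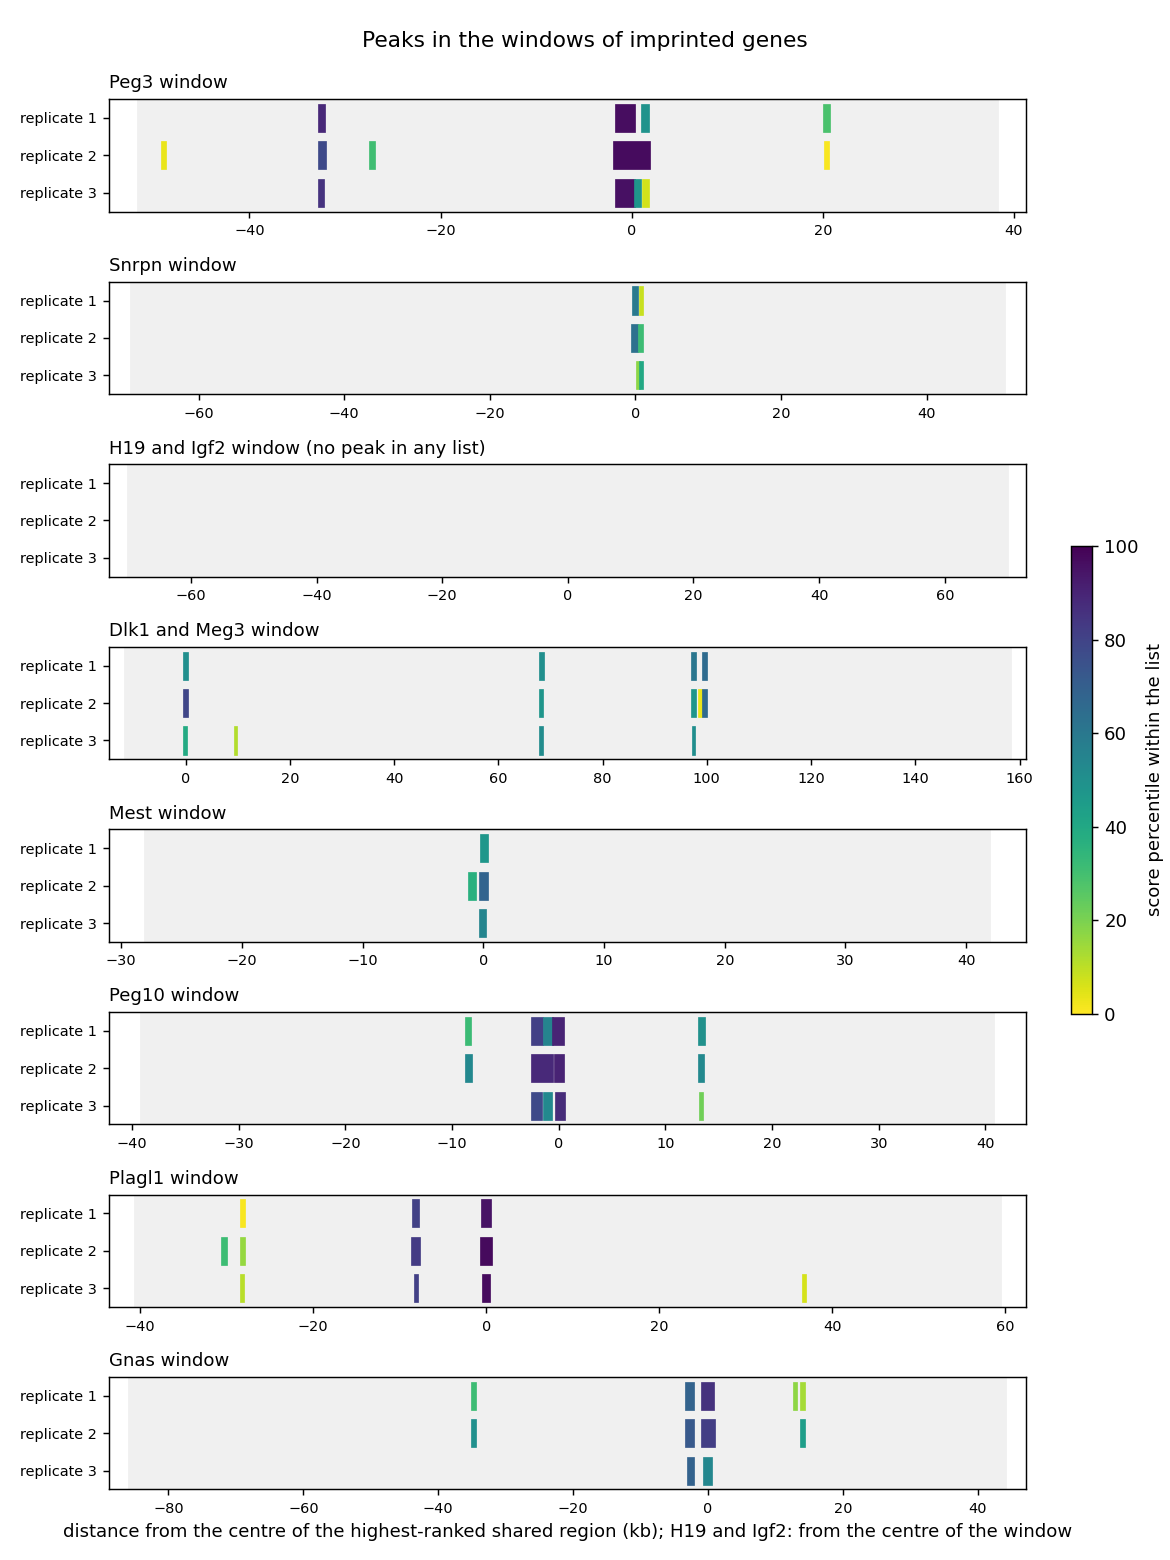
Peaks of each replicate (rows) in the 8 windows, drawn to scale in kb from the centre of the highest-ranked region held by all 3 animals, or from the window's centre for H19 and Igf2. Grey marks the window and colour the score percentile within the list; the Peg3, Plagl1 and Peg10 windows hold the darkest blocks and the H19 and Igf2 window is empty.

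Peaks were found in 7 of the 8 windows. In all 3 animals a peak was present for 16 of the 29 regions (55.2%), against 43.6% of all regions of the genome, and the 95% exact binomial interval of the member share, which treats regions as independent, ran from 35.7% to 73.6%. The genome share lies inside this interval. A further 5 regions (17.2%) were held by replicates 1 and 2, against 17.4% over the genome, and no region was held by another pair, against 2.13% for replicates 1 and 3 and 3.54% for replicates 2 and 3 over the genome. The remaining 8 (27.6%) were held by 1 animal alone, against 33.4%. Of these, 5 were in replicate 2, which is 17.2% of the members, against 16.3% over the genome. Of the member peaks, 75.0%, 61.5% and 85.7% in replicates 1, 2 and 3 were matched by peaks of both other animals, against 58.9%, 53.8% and 78.4% of the whole lists. The member share was higher than that of the whole list by 16.1, 7.77 and 7.31 points in replicates 1, 2 and 3, and the difference was not tested.

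In peaks per Mb, the windows together had 26.7 in replicate 1, 28.9 in replicate 2 and 23.3 in replicate 3, against 25.1, 27.5 and 19.5 on the autosomes of the same animals. The ratio was 1.06, 1.05 and 1.20 in replicates 1, 2 and 3, a mean of 1.10 ± 0.08 (SD, n = 3). The windows as placed thus lay slightly above the autosomal density in each animal, and the difference was not tested. With windows widened by 25% of their length on each side, the mean ratio was 1.03 ± 0.11 (SD, n = 3). That mean is within 1 SD of an equal density. Peaks covered 1.78%, 2.20% and 1.26% of the windows in replicates 1, 2 and 3, against 1.53%, 1.71% and 0.846% of the autosomes. The median percentile of the member peaks was 52.9, 53.2 and 51.8 in replicates 1, 2 and 3, near the middle of each list. The set as a whole thus lay near the average in number and rank, and the windows differed widely among themselves.

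**Figure D2:**
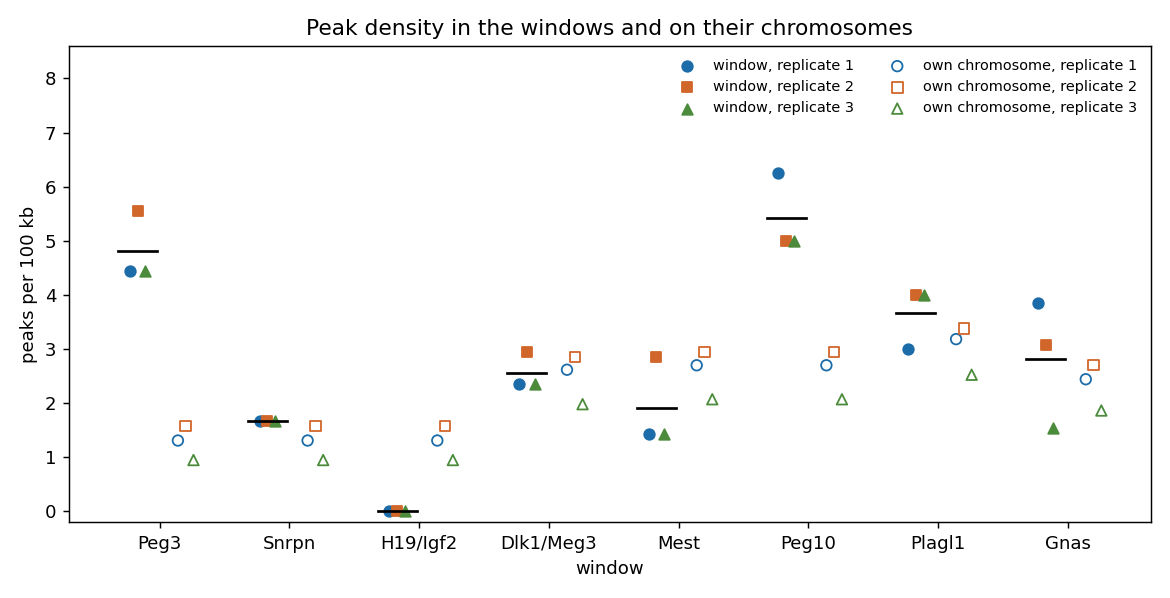
Peaks per 100 kb in each window (filled symbols, left, with the mean as a line) and on the chromosome that holds it (open symbols, right), by replicate. The Peg3, Peg10 and Snrpn windows lie above their chromosomes in all 3 animals, Snrpn by the least, and the H19 and Igf2 window lies at 0. Chromosome 7, which holds the Peg3, Snrpn, and H19 and Igf2 windows, is the sparsest chromosome shown.

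Peg10, a gene derived from a retrotransposon and expressed from the paternal copy, had the densest window. Its 80 kb held 5 peaks in replicate 1 and 4 in each of replicates 2 and 3, a mean of 5.42 ± 0.72 peaks per 100 kb (SD, n = 3). Chromosome 6, on which it lies, had 2.70, 2.94 and 2.07 peaks per 100 kb in replicates 1, 2 and 3. The Peg3 window came next with 4.81 ± 0.64 (SD, n = 3), from 4.44, 5.56 and 4.44 peaks per 100 kb in replicates 1, 2 and 3. Chromosome 7 had 1.31, 1.58 and 0.949 peaks per 100 kb in the same animals, so that even the lowest value of the Peg3 window was above the highest value of its chromosome. These means of the Peg10 and Peg3 windows differed by less than 1 SD of either. Plagl1 followed with 3.67 ± 0.58, Gnas with 2.82 ± 1.17 and the window of Dlk1 and Meg3 with 2.55 ± 0.34 peaks per 100 kb. Mest had 1.90 ± 0.82 and Snrpn 1.67 in every animal. The Snrpn value was above each of the chromosome 7 values given for Peg3, but below the autosomal density of each animal. Chromosome 7 was the sparsest of the chromosomes that hold the windows. In the order from Plagl1 to Snrpn, means of neighbouring windows differed by less than the larger of their SDs, though not always by less than the smaller.

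Peg3 encodes a zinc finger protein expressed from the paternal copy. In RefSeq (GRCm38.p6) it lies between Zim1 and Usp29. Its window, on chromosome 7 from 6630000 to 6720000, held 5 regions, 2 of them shared by all 3 animals. The strongest was region 4, from 6679834 to 6683534, which also was the widest of all 29 at 3701 bp. Its highest peak scored 820.56 in replicate 1, 1012.39 in replicate 2 and 510.75 in replicate 3, at percentiles 96.7, 97.1 and 95.9. The 3 animals thus placed it within 1.14 percentile points of each other.

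Of the 36824 regions held by all 3 animals over the genome, 5.18% had a higher mean percentile than this Peg3 region and 0.187% were wider. Replicate 2 had a single peak over its 3701 bp. Replicate 1 had 2 peaks there, of 1963 and 670 bp, and replicate 3 had 3, of 1848, 609 and 485 bp. The left peak carried the high score in replicates 1 and 3, and the others stood at percentile 48.5 in replicate 1 and at 48.0 and 6.87 in replicate 3. The part covered in all 3 lists was 2333 bp. The other shared region of the window, region 2, lay from 6648962 to 6649553 and stood at percentiles 89.0, 78.1 and 85.4 in replicates 1, 2 and 3. Region 5, from 6701831 to 6702303, was called in replicates 1 and 2 at percentiles 28.5 and 0.920, close to the lowest reported score. Regions 1 and 3 were called in replicate 2 alone, at percentiles 3.47 and 30.9.

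Plagl1 encodes a zinc finger transcription factor that is likewise paternally expressed, and in RefSeq it overlaps the noncoding gene Hymai. Its window on chromosome 10, from 12770000 to 12870000, held 5 regions, 3 of them shared by all 3 animals. The strongest was region 4, from 12810002 to 12811146, with scores of 689.21, 1042.98 and 591.24 in replicates 1, 2 and 3. These stood at percentiles 95.02, 97.3 and 97.1, a range of 2.30 points. Of all regions held by the 3 animals, 5.28% had a higher mean percentile. It was the highest-scoring region of the 29 in replicates 2 and 3, and the Peg3 region was the highest in replicate 1.

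Region 3 of the Plagl1 window, from 12802033 to 12802810, lay 7191 bp before it and was also ranked alike, at percentiles 80.9, 82.6 and 81.1 in replicates 1, 2 and 3. Region 2, from 12782182 to 12782545, was the weakest of the 16 shared regions, at percentiles 1.003, 15.8 and 10.6 in replicates 1, 2 and 3, yet it was called in every animal and the lists had 234 of its 364 bp in common. Of the regions held by all 3 animals over the genome, 99.8% had a higher mean percentile. Region 1 was called in replicate 2 alone at percentile 31.6 and region 5 in replicate 3 alone at percentile 6.57.

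The Peg10 window on chromosome 6, from 4660000 to 4740000, held 4 regions, 3 of them shared by all 3 animals. In RefSeq the protein-coding gene before Peg10 is Sgce, another paternally expressed gene. The highest-ranked region was region 3, from 4698623 to 4699670, with scores of 475.87, 584.84 and 282.14 and percentiles of 89.9, 90.5 and 87.5 in replicates 1, 2 and 3. Region 2, from 4696606 to 4698559, ended 63 bp before it and was 1954 bp wide. It stood at percentiles 81.1, 88.4 and 77.5 in replicates 1, 2 and 3. Replicates 1 and 3 had 2 peaks in region 2 and replicate 2 had 1. Regions 2 and 3 thus lay side by side in every animal.

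Region 4 of the Peg10 window, from 4712278 to 4712740, was weaker, at percentiles 49.8, 53.0 and 21.8 in replicates 1, 2 and 3, and the lists had 153 of its 463 bp in common. Region 1, from 4690449 to 4690965, was called in replicates 1 and 2 at percentiles 32.0 and 53.4. Replicate 3 had no peak there.

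Gnas encodes the stimulatory G protein alpha subunit and, from other promoters, transcripts expressed from the maternal or from the paternal copy. RefSeq lists the antisense gene Gnasas1 across it. Its window on chromosome 2, from 174070000 to 174200000, held 5 regions, 2 of them shared by all 3 animals. Region 3, from 174154896 to 174156676, scored 384.28 in replicate 1, 371.18 in replicate 2 and 104.55 in replicate 3, at percentiles 85.9, 81.7 and 53.6. Replicate 3 thus placed it far lower than the other animals did. Region 2, from 174152578 to 174153590, ended 1305 bp before it and was ranked more evenly, at percentiles 68.6, 72.6 and 68.9 in replicates 1, 2 and 3.

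The lists had 786 of the 1013 bp of Gnas region 2 in common, or 77.6%, the highest share of the 16 shared regions. Region 1, from 174120754 to 174121261, and region 5, from 174169522 to 174170001, were called in replicates 1 and 2 only. Region 1 stood at percentiles 31.4 and 50.3 and region 5 at 13.6 and 44.5 in replicates 1 and 2. Region 4 was called in replicate 1 alone at percentile 17.1. Replicate 3, the shortest list, had 2 peaks in the Gnas window, against 5 in replicate 1 and 4 in replicate 2. Without replicate 3, 4 regions of the window were shared by the remaining animals. The part that list length plays in this was not tested.

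Dlk1 encodes a transmembrane protein related to the Notch ligands and is expressed from the paternal copy, while Meg3 is a long noncoding RNA expressed from the maternal copy. Their window on chromosome 12, from 110670000 to 110840000, is the longest of the 8 and held 6 regions, 3 of them shared by all 3 animals. Region 1, from 110681380 to 110681948, scored 123.44 in replicate 1, 330.59 in replicate 2 and 80.76 in replicate 3. The percentiles were 50.7, 79.0 and 39.2, so replicate 2 placed it highest and replicate 3 lowest.

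Region 3 of this window, from 110749569 to 110750142, was the most even of the Dlk1 and Meg3 regions, at percentiles 50.6, 47.7 and 51.8 in replicates 1, 2 and 3. Region 4, from 110778856 to 110779447, stood at 60.6, 48.0 and 51.0 in the same animals. Region 6, from 110780906 to 110781562, lay beyond region 4 and had higher percentiles, 65.4 in replicate 1 and 65.9 in replicate 2, but no peak in replicate 3. It was the strongest of the 13 regions that were not held by all 3 animals. Region 5, between regions 4 and 6, was called in replicate 2 alone at percentile 3.29, and region 2 in replicate 3 alone at percentile 11.5.

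Mest encodes a protein of the hydrolase fold family expressed from the paternal copy, and in RefSeq it overlaps Copg2 and Mir335. Its window on chromosome 6, from 30660000 to 30730000, held 2 regions. Region 2, from 30687698 to 30688310, was held by all 3 animals, with scores of 113.48, 220.64 and 106.02 and percentiles of 46.9, 68.0 and 54.3 in replicates 1, 2 and 3. Region 1 ended 372 bp before it and was called in replicate 2 alone at percentile 36.5. All peaks of the window thus lay within 1468 bp.

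Snrpn encodes a spliceosomal protein, is expressed from the paternal copy and shares its locus with Snurf and the long noncoding gene Snhg14 in RefSeq. In human, the corresponding region is that of the Prader-Willi and Angelman syndromes. The window on chromosome 7, from 67080000 to 67200000, held 2 regions 80 bp apart, with a peak of every animal in each. Region 1, from 67148847 to 67149710, stood at percentiles 59.4, 63.0 and 17.3 in replicates 1, 2 and 3. Region 2, from 67149791 to 67150201, stood at 8.22, 31.3 and 40.1 in the same animals. The order of the regions was thus reversed in replicate 3.

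In Snrpn region 1, 24 bp of its 864 bp were covered in all 3 lists, or 2.78% of its width. This was the lowest share of the 16 shared regions. The peak of replicate 1, from 67148984 to 67149468, lay wholly inside that of replicate 2, from 67148847 to 67149523. The peak of replicate 3, from 67149445 to 67149710, met only their ends. When 50% of both peaks had to overlap, 1 region of the Snrpn window was held by all 3 animals. The nearest regions to this pair lay 99855 bp before and 233503 bp after it.

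H19, a noncoding RNA expressed from the maternal copy, and Igf2, a growth factor gene expressed from the paternal copy, are the textbook pair of imprinting and share enhancers and a control region bound by CTCF. Their window on chromosome 7, from 149740000 to 149880000, had 0 peaks in each of the 3 lists. Without read counts, no limit can be put on the accessibility that the lists could have missed. The nearest region before the window ended 15.9 kb away, at 149724139, and was called in replicate 2 alone with a score of 61.84. The nearest region held by all 3 animals, from 149718766 to 149719538, ended 20.5 kb away and scored 108.37, 207.39 and 68.71 in replicates 1, 2 and 3. After the window, the next peak of any list began 209 kb away, in replicate 1 alone with a score of 50.25. The next region held by all 3 animals began 314 kb after the window.

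The window thus lay in a stretch of 365 kb without a peak in any animal. Of the 2790 distances between neighbouring regions on chromosome 7, 42 (1.51%) were longer than this stretch, and the median distance was 20.0 kb. Over all autosomes, 0.274% of such distances were longer. Chromosome 7 as a whole holds few peaks. Of the 1065 stretches of the same length, laid end to end along it, 31.8% held the centre of no region, against 9.57% of the 17224 such stretches on all autosomes. Stretches of 140 kb without a region were therefore common on this chromosome. Distances as long as that around H19 and Igf2 were few by number, but a long distance takes up more of the chromosome than a short one. The share of distances is therefore not the share of positions that lie in one so long, which was not computed. The absence of peaks was not tested and is not shown to be particular to these genes.

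Counts of shared regions in the other windows were set beside stretches of the same length on the autosomes in the same way, as a description. The 3 shared regions of the Peg10 window were reached or passed in 14.7% of such stretches, and in 16.3% on chromosome 6 alone. For the 3 of the Plagl1 window the share was 21.5% over the autosomes and 32.1% on chromosome 10 alone. For the 2 of the Peg3 window the share was 36.9% over the autosomes and 17.6% on chromosome 7 alone. For the 2 of the Snrpn window it was 47.7% over the autosomes and 23.2% on chromosome 7 alone. For the Dlk1 and Meg3, Gnas and Mest windows it was 42.8%, 50.7% and 57.4% over the autosomes. On their own chromosomes it was 46.5%, 49.2% and 59.9%. When 50% of both peaks had to overlap, the Peg10 window had 1 shared region in place of 3, so its share rests on the rule for joining peaks.

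**Figure D3:**
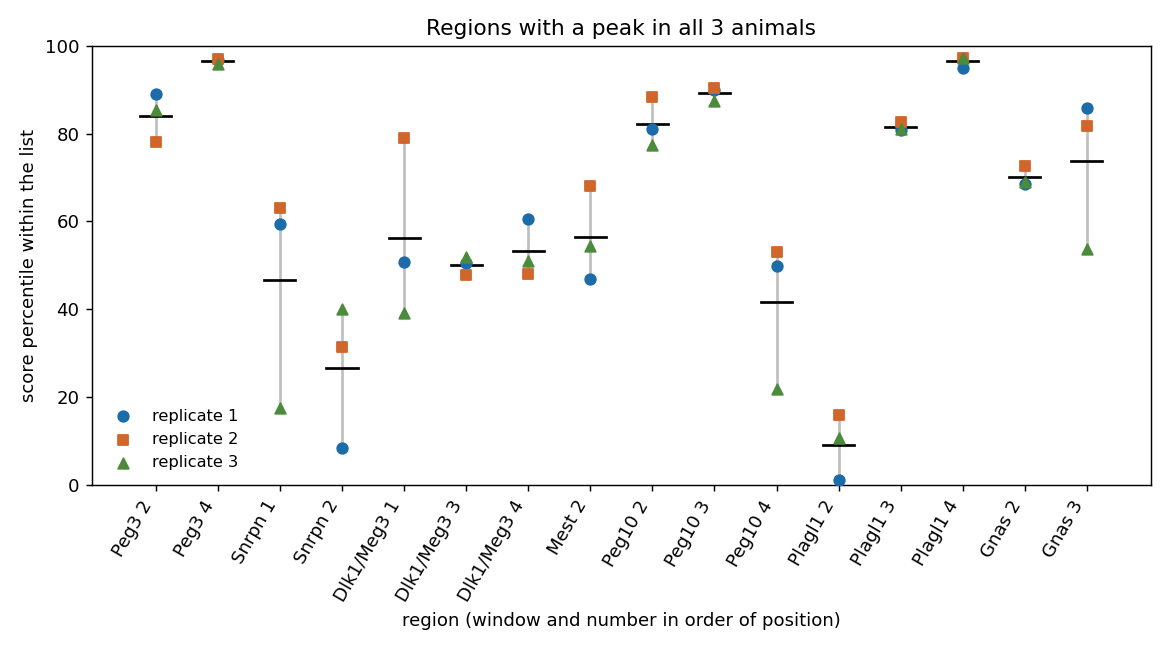
Score percentile within the list for the 16 regions held by all 3 animals, by replicate (symbols), with the mean (black line) and the range (grey line). Peg3 region 4 and Plagl1 region 4 stand between 95.02 and 97.3 in every animal, while Snrpn region 1 spreads from 17.3 to 63.0.

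Among the 16 shared regions, the mean percentile ran from 9.13 to 96.6 with a median of 63.2, against a median of 65.4 over all 36824 regions held by the 3 animals. Of the 16, 8 lay above that genome median. The range of a region's percentiles over the 3 animals had a median of 11.8 points, against 16.0 over all such regions. The smallest range was 1.14 points, at Peg3 region 4, and the largest 45.7, at Snrpn region 1, where the 3 lists had 24 bp in common. The highest-ranked regions of the Peg3, Plagl1 and Peg10 windows had ranges of 1.14, 2.30 and 2.99 points. Values near the top of a scale have less room to differ.

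Across the 16 shared regions, the Spearman correlation of scores was 0.88 for replicates 1 and 2, 0.84 for 1 and 3, and 0.82 for 2 and 3. Over all 36824 shared regions of the genome the same pairs had 0.88, 0.79 and 0.78. These are descriptions, since the regions of a list share a library and several share a window. In the 13 regions held by fewer animals, the highest percentile was 65.9, in replicate 2 at Dlk1 and Meg3 region 6. The 8 regions of 1 animal had percentiles from 3.29 to 36.5, and the 5 of replicates 1 and 2 had mean percentiles from 14.7 to 65.6.

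**Figure D4:**
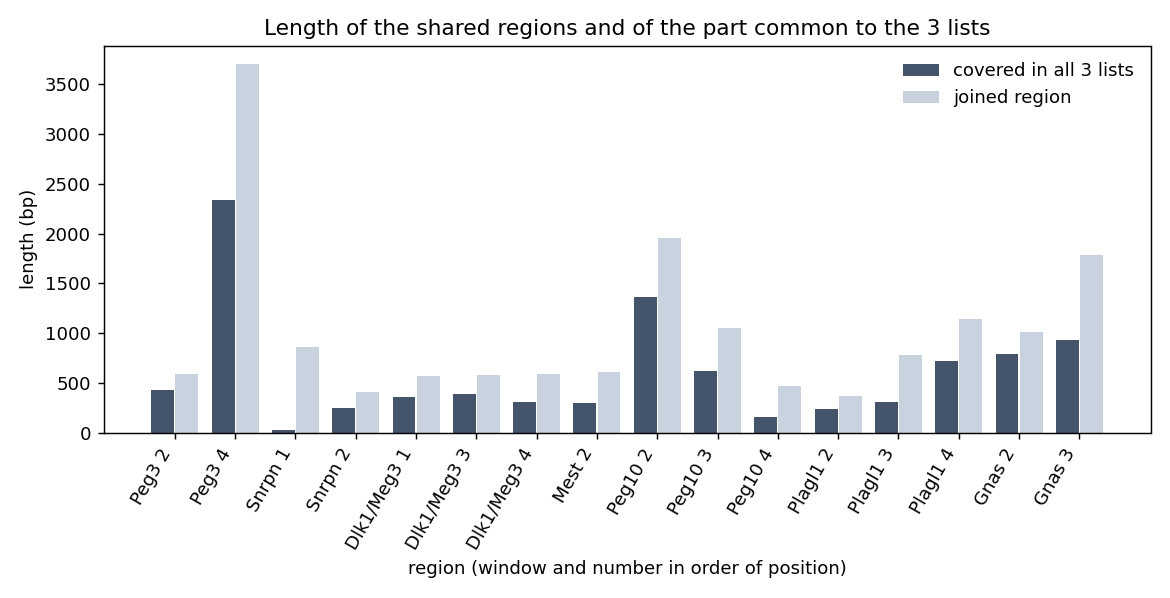
Length in bp covered in all 3 lists (dark bars) and length of the joined region (light bars) for the 16 shared regions. The Peg3 region of 3701 bp is the longest, and Snrpn region 1 has 24 bp in common.

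The shared regions had a median width of 695.5 bp, against 692 bp over all shared regions of the genome. The part covered in all 3 lists had a median of 372.5 bp, or 61.6% of the width, against 381 bp and 56.5%. Only Peg3 region 4 was wider than 2 kb, 1 of 16 or 6.25%, against 2.89%. Peak numbers differed between animals in Peg3 region 4 and Peg10 region 2, which makes 2 of 16 (12.5%), against 5.6%. Among all 29 regions, 11 (37.9%) lay less than 1 kb from another region, against 11.9% over the genome. These 11 were spread over 5 windows, with 2 in Snrpn, 3 in Dlk1 and Meg3, 2 in Mest, 2 in Peg10 and 2 in Gnas. The difference was not tested, and neighbouring regions are counted in pairs or triplets, so the 11 are not independent.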

How the data were processed

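Bowtie2 and the build mm9 are named in the submitters' processing notes. The deposited files are 1 peak list per sample, with peak names of the caller MACS. The score of each peak is the authors' own, has no stated unit and reaches down to 50.0 in each list. No label or header gives versions, settings, duplicate treatment or a Tn5 shift. The build was checked by position: 105, 131 and 77 peaks of replicates 1, 2 and 3 lie on chromosome 7 beyond the last RefSeq gene of GRCm38, so the lists are not on that build. RefSeq tables (GRCm38.p6) gave names, neighbours and promoter sequences only. No gene was assigned to a peak.

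Overlaps, joins, percentiles and densities were computed with pandas 2.3.3, numpy 2.4.6 and scipy 1.17.1 in Python 3.11.15 and drawn with matplotlib 3.10.9. The joins were tested on simulated peaks of equal width, set far apart. The joining of wide or adjacent peaks was not tested there. Density used the distance between the outer peaks of each chromosome. Positions count from 1. With 1 group, no test between conditions was made, and errors are SD over 3 animals. The naming rule was the highest-ranked shared region of each window, the widest region and any single-animal region above the 50th percentile, of which there were 0; the other members are given because all 29 are described. The windows and measures were chosen with earlier results of these data known. The lists of other imprinted genes and of cell type markers were not computed, for want of an mm9 annotation.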

Additional observations from a re-analysis of the deposited data

How the results depend on the processing

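Of 110 alternative values for 14 results, 90 stayed within the spread between replicates, the 95% exact binomial interval or a factor of 1.5, and 20 moved beyond it. Taking the highest-scoring 50% of each list lowered the regions to 17 and those held by all 3 animals to 8, and raised the relative density to 1.27 and, by construction, the median percentile to 75.3. An equal number of top peaks (48769) in each list gave a density of 1.20 and a percentile of 58.7. This percentile too rose by construction, since it was ranked on the full lists before the lowest peaks were dropped. A reciprocal overlap of 50% lowered the share of regions held by all 3 animals to 37.1%. It lowered the share of member peaks found in both other animals to 49.6%. The shares over the genome and the whole lists were not recomputed under this rule, so they cannot be set beside these values. Leaving out 1 replicate gave 27 to 28 regions, 16 to 21 of them held by all remaining animals, a share of regions held by all of 57.1% to 77.8%, a share of peaks found in the others of 76.0% to 88.3%, densities of 1.06 to 1.13 and percentiles of 52.3 to 53.0. The highest shares were those without replicate 3, and fewer lists to match raise them by construction. Without replicate 3, the Gnas window had 4 regions held by all, against 2 with it. Windows widened by 25% of their length on each side held 43 regions, 22 of them shared, and then 1 shared region fell in the H19 and Igf2 window. Their relative density was 1.03 ± 0.11 (SD, n = 3), against 1.10 ± 0.08 in the windows as placed. With a reciprocal overlap of 50%, the Peg10 window had 1 shared region, against 3. In the highest-scoring 50%, the Snrpn, Mest, and Dlk1 and Meg3 windows kept 0 shared regions. Depth is unknown, 3 animals limit the precision, and no allele can be told apart. No paired analysis was possible because only the E24 samples were analysed.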
